A study of Mus musculus with 18 samples.

Results

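The 10 genes described here belong to the hypoxia response and to angiogenesis: Hif1a, Epas1, Arnt, Egln1, Egln3, Vegfa, Adm, Slc2a1, Kdr and Flt1. Their members in the data are the ATAC-seq peaks that overlap each gene from 10 kb upstream of its annotated start to its end (mm10, GENCODE M21), with an overlap of at least 1 bp. ATAC-seq marks open chromatin, because a transposase inserts adapters where DNA is accessible and the fragments pile up into peaks. Peaks of all libraries that touched each other were merged, which gave 69 regions in these windows, of 99792 in the genome. Of the 69, 57 had a peak in at least 2 libraries and are called consensus regions here, of 73567 consensus regions in all. The remaining 12 were listed in 1 library each and fell in all 6 groups. A region is named by its gene and by the distance of its summit from the gene's start.

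The 18 libraries came from whole wild-type mouse retina, in 6 groups of 3. At 3 months (3mo) and 18 months (18mo) of age there were retinas of untreated animals, retinas of eyes in which the intraocular pressure was raised to 30 mmHg over 1 hour (IOP), and the fellow retinas with no raised pressure (contralateral). Pressure-exposed and contralateral retinas were collected on day 2 per the labels, while the study's text names a later day. Text shared by all labels also mentions dasatinib injections, but no label assigns a library to a drug arm, so every group may or may not carry it. The labels do not say which libraries came from the same animal, so the p-values below measure the spread between these libraries. Since the tissue was bulk retina, a weaker peak from fewer cells of a type and a weaker peak in each cell cannot be told apart.

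Under normal oxygen, the prolyl hydroxylases encoded by Egln1 and Egln3 mark the alpha subunits of the hypoxia-inducible factors, encoded by Hif1a and Epas1, for degradation. When oxygen is short, the alpha subunits persist, pair with the subunit encoded by Arnt and bind short DNA elements with the core ACGTG or GCGTG near target genes such as Vegfa, Adm, Slc2a1 and Egln3. The growth factor encoded by Vegfa acts on endothelial cells through the receptors encoded by Kdr and Flt1, and this axis shapes the retinal vessels in development and in ischemic eye disease.

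Windows of 200 bp around the summit were read from the GRCm38 genome (the same build as mm10) on the strand of the gene. They are shown for the start regions of a HIF subunit, of the targets and of a receptor, and also for a start region that was often missed beside the intronic region of the same gene that was never missed and for the Egln1 region with the lowest p of the IOP comparison. Capitals mark the cores ACGTG and GCGTG on either strand, as well as TAATCC, the core bound by the photoreceptor factors CRX and OTX2. A match on the opposite strand is in capitals as its reverse complement. The first core also lies inside the E-box CACGTG.
Hif1a, 6.49 kb downstream of the annotated start, chr12:73907769-73907968, plus strand: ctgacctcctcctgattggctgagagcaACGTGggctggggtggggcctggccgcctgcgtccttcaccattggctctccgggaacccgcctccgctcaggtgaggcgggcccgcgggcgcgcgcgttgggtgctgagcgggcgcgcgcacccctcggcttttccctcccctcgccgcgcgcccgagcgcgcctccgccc
Egln1, 24.8 kb downstream, chr8:124924400-124924599, minus strand: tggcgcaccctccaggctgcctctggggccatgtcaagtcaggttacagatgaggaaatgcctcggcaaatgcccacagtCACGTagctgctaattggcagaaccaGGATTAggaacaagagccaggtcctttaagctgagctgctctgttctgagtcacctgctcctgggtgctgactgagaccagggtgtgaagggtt
Egln3, start region, chr12:54203765-54203964, minus strand: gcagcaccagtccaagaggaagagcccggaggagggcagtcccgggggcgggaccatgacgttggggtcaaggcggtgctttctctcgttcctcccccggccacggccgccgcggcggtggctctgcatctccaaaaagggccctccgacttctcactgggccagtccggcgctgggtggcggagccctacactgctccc
Egln3, 11.7 kb downstream, chr12:54192023-54192222, minus strand: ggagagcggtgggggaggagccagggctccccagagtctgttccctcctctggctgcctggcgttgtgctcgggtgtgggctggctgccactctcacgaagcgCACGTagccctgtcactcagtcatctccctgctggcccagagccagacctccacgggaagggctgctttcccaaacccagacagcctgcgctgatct
Vegfa, start region, chr17:46032326-46032525, minus strand: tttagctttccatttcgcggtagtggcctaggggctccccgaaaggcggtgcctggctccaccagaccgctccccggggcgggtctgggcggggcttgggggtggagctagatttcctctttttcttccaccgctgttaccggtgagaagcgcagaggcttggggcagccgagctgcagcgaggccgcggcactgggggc
Adm, start region, chr7:110627516-110627715, plus strand: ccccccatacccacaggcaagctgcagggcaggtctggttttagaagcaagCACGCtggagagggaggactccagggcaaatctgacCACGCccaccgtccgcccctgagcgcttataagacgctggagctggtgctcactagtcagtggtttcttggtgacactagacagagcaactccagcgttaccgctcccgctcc
Slc2a1, 0.433 kb downstream, chr4:119109044-119109243, plus strand: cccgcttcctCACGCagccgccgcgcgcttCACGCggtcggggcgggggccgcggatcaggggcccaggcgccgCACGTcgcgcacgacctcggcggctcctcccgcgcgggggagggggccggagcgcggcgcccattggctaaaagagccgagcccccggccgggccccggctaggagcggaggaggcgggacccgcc
Kdr, start region, chr5:75978406-75978605, minus strand: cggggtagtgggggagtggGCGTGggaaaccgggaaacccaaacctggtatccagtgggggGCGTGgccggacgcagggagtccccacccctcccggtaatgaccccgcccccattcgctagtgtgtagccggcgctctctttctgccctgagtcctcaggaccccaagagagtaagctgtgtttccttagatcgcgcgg

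Most of these genes carried a constant start region, and some regions away from a start were constant too. The regions that came and went between libraries were mostly weaker, with a strong one in Flt1 (below). In 7 of the 10 genes a peak overlapped the stretch between 1 kb before and 100 bp after an annotated start in every library, against 51.7% of 21951 protein-coding genes. The exceptions were Egln3, Adm and Flt1. Among the 57, 15 had a peak in every library, against 33.6% of consensus regions in the genome. These 15 were wide, with a median width of 1035 bp, and their median fold (the pileup at the summit over the local background of the library) ran from 4.19 to 14.9. The other 42 had a median width of 289.5 bp, and 35 of the 57 had their summit in an intron, 11 in a promoter, 7 in an exon and 4 between genes.

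The cores ACGTG or GCGTG occurred in the summit window of 23 of the 57 regions (40.4%), and in 30.6% of the 73445 consensus regions of the genome with a full window. In the 15 constant regions the count was 9 (60.0%), against 41.4% of all constant regions of the genome, and in the 11 regions over an annotated start of the gene it was 6. These start regions were rich in G and C, with a median of 69.5%, against 52.5% over all consensus regions and 58.0% over all constant regions of the genome. Neither value was computed for the start regions of other genes, so neither is shown to be particular to these genes. TAATCC occurred in 6 of the 57 windows and in 15.4% of all windows. A motif named CTCF core, the site of the insulator protein CTCF, occurred in 4 of the 57 and in 6.31% of all. A match is only a match of letters, and windows without one say nothing of the factor.

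**Figure D1:**
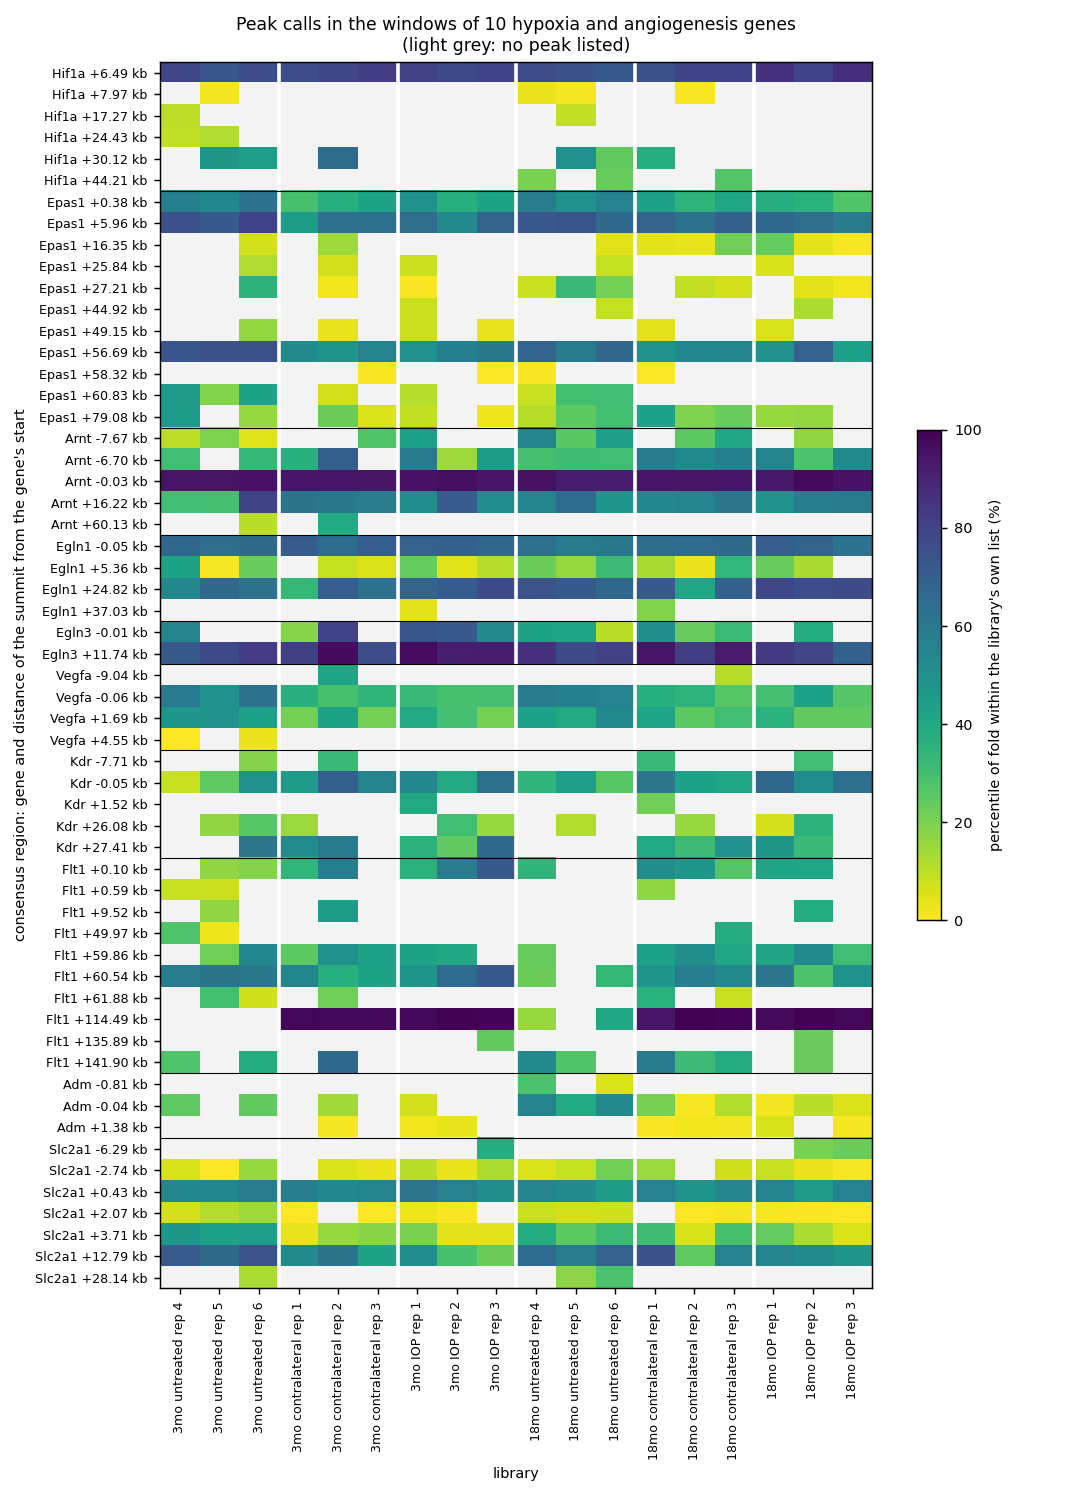
Calls of the 57 consensus regions (rows, by gene and summit distance) in the 18 libraries (columns, 3 per group). Colour gives the percentile of the peak's fold within the list of its own library, and light grey means that no peak was listed. The rows of the 15 constant regions are filled throughout, while the other 42 have gaps in at least 1 library.

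**Figure D2:**
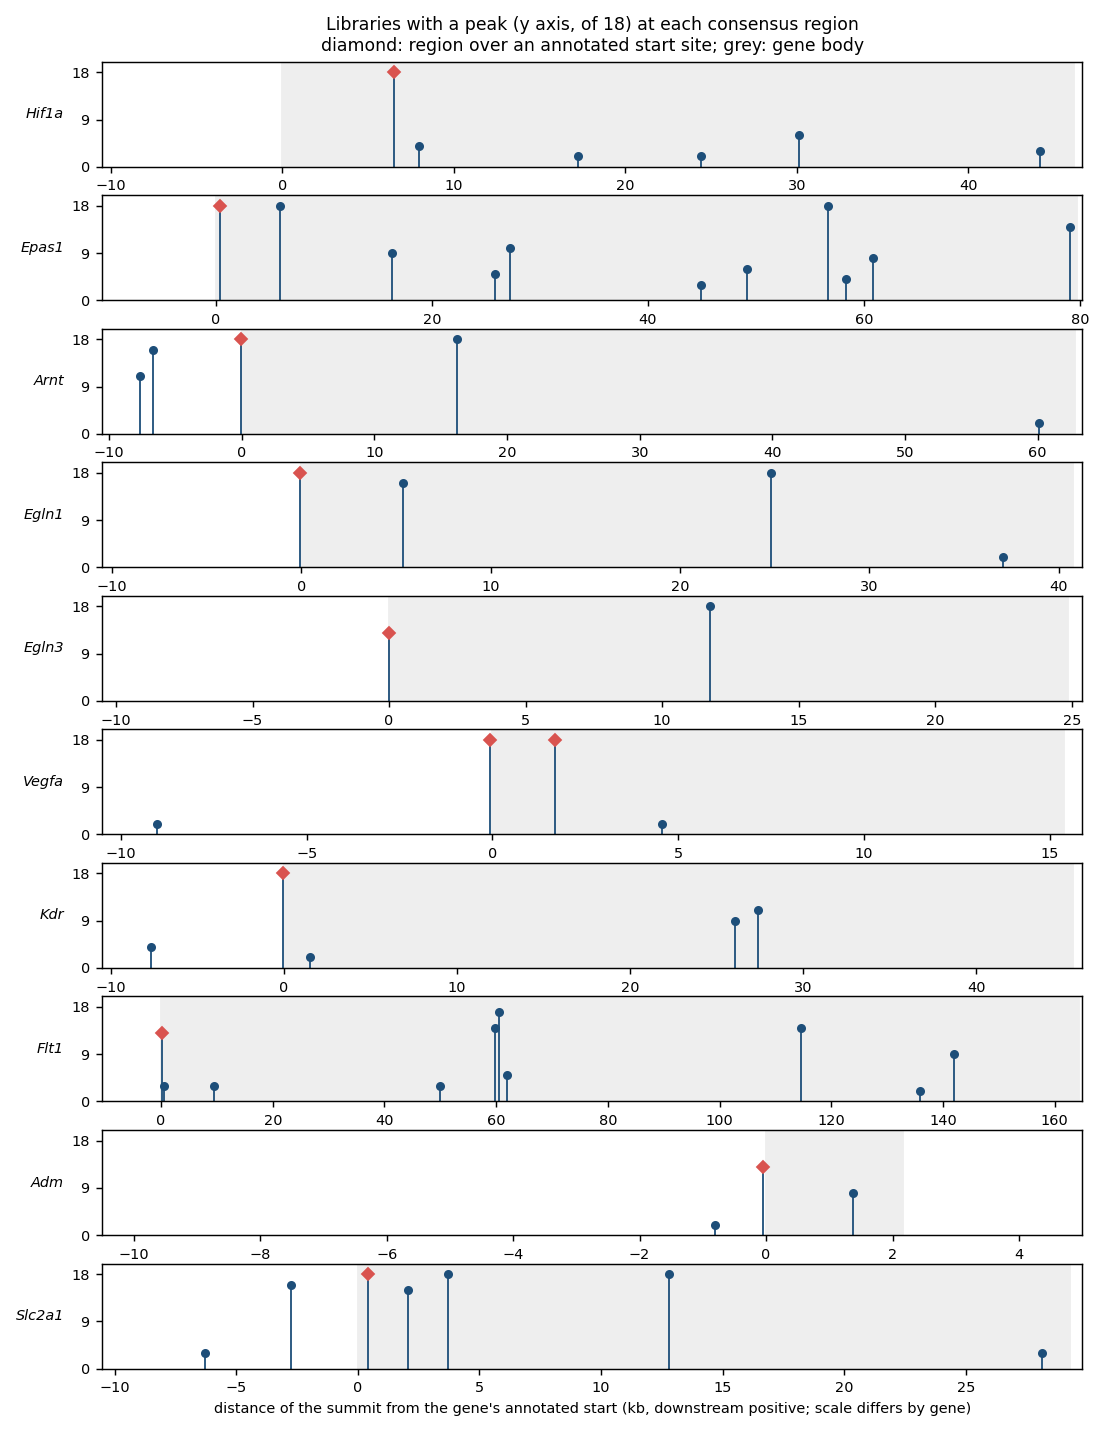
Number of libraries with a peak (y axis, of 18) at each consensus region, by the distance of its summit from the annotated start of the gene in kb (x axis, scaled by gene). Red diamonds are regions over an annotated start site and reach 18 in all genes but Egln3, Flt1 and Adm, where they reach 13.

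Among the genes of the HIF subunits, Arnt had the strongest start region of the 10 genes. Its fold ran from 12.45 to 17.7 over the 18 libraries, and among the 24751 regions called in every library it ranked between the 84.0 and the 94.7 percentile. Such a percentile within a library is used below to set libraries side by side, because the fold itself depends on each library's background. A region 16.2 kb into Arnt was also called everywhere, at percentiles from 5.10 to 49.4. The pair of regions 7.67 and 6.70 kb upstream of Arnt lay at a start of the neighbouring gene Gm4349 and were called in 11 and 16 libraries. The window of Arnt held 3 to 5 peaks in every library.

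Hif1a, the oxygen-regulated alpha subunit found in most cells, has 2 annotated start sites in this annotation. No peak was listed at the first of them in any library, and the constant region lay 6.49 kb downstream, 35 bp before the second start. Its percentile was 57.8, 51.5 and 41.2 in the 3mo untreated libraries, 62.4, 47.8 and 69.8 in the 3mo contralateral and 59.3, 60.7 and 63.97 in the 3mo IOP libraries. At 18mo the values were 51.0, 51.7 and 44.9 in untreated, 44.1, 59.4 and 55.5 in contralateral and 72.2, 61.6 and 81.3 in IOP retinas. The 18mo IOP values lay above all 18mo contralateral values, and at 3mo the groups overlapped. Such a separation at 18mo was also found at the start regions of Epas1 and Egln1 and at an intronic region of Egln1. An exact test of 3 against 3 cannot go below 0.1, and the share of all shared regions with such a separation was not counted. Over both ages the IOP difference was 9.99 points (exact permutation test, two-sided, p = 0.105, Benjamini-Hochberg adjusted p = 0.648).

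The remaining Hif1a regions were short and weaker than the constant region. The window held 4, 5 and 3 peaks in the 3mo untreated libraries and 3, 4 and 3 at 18mo. In the 3mo contralateral libraries it held 1, 2 and 1, in the 18mo contralateral 2, 2 and 4, and in all 6 IOP libraries 1 peak, the start region alone. The IOP difference was -1.0 peak (exact permutation test, p = 0.05, adjusted p = 1.0), which is at and not under the threshold. Without 3mo contralateral replicate 1, or without replicate 3 of that group, the difference was -1.08 peaks (exact p = 0.02 for each), and these were the 2 of 16 alternatives with p under 0.05. With lists cut to equal numbers of peaks the difference was -0.167 peaks (exact p = 1.0), and with a wide window, from 50 kb upstream of the gene to 10 kb downstream, -2.0 (exact p = 0.1). The shortest peak of a list was 79 to 89 bp in the untreated and 114 to 157 bp in the contralateral and IOP libraries, and 1 Hif1a region was 79 bp wide. The lists therefore differ in the shortest peak they hold in the same direction as the Hif1a counts, and the part of this in the counts was not tested. The strongest of these minor regions, 30.1 kb downstream, was called in 6 libraries and 96.5% of its window was masked as repeat in the genome.

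Epas1 encodes the alpha subunit HIF-2, which is prominent in endothelial and other specialised cells. Its window held 11 consensus regions, the largest number of the 10 genes, and 3 of them were constant. These were the start region, with a summit 0.378 kb downstream, and regions 5.96 and 56.7 kb into the gene. The start region ranked low, between the 6.56 and the 23.3 percentile, and the region at 5.96 kb between 23.0 and 52.1. The region at 56.7 kb ranked from 39.1 to 53.9 in the 3mo and from 26.6 to 35.6 in the 18mo untreated libraries. These did not overlap (exact permutation test, p = 0.1, the smallest that 3 against 3 allows), while the contralateral values of the 2 ages did. The number of peaks was 8, 7 and 12 in the 3mo untreated libraries, 3, 12 and 6 in the 3mo contralateral, and 12, 3 and 6 in the 3mo IOP libraries. At 18mo it was 13, 12 and 13 in untreated, 11, 7 and 8 in contralateral and 11, 9 and 7 in IOP libraries. The 18mo controls had 2.67 more peaks on average than the 3mo controls, 10.7 ± 2.58 against 8.00 ± 3.52 (SD, n = 6 each, exact permutation test, p = 0.195), and the ranges overlapped.

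A pair of intronic Epas1 regions, picked after their calls were seen, went opposite ways. The region 60.8 kb downstream was called in all 6 untreated libraries but in 2 of the other 12, namely 3mo contralateral replicate 2 and 3mo IOP replicate 1. The region 16.3 kb downstream was called in 1 library of each untreated group, in 1 of 3 of the 3mo contralateral and in none of the 3mo IOP, and in all 6 contralateral and IOP libraries of 18mo. Neither passed a test of age (exact Fisher test, p = 1.0 and 0.567) or of IOP (exact conditional test, p = 1.0 for each). The IOP test could not have passed, because the calls of neither region allow it a p under 0.05.

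Both hydroxylase genes paired a start region with a strong intronic region. Egln1, which encodes the main oxygen sensor of the family, had a start region at percentiles from 21.9 to 54.3 in all 18 libraries. The intronic region 24.8 kb downstream holds ACGTG and TAATCC in its window (printed above) and was also constant. Its percentile was 15.6, 32.3 and 39.4 in the 3mo contralateral libraries and 37.0, 48.9 and 58.8 in the 3mo IOP libraries. At 18mo it was 38.3, 11.98 and 35.0 in contralateral and 58.1, 54.2 and 67.2 in IOP libraries. In the untreated libraries it was 19.4, 38.5 and 18.4 at 3mo and 47.0, 45.3 and 34.5 at 18mo. The IOP and contralateral values overlapped at 3mo and did not overlap at 18mo, where all 3 IOP values also exceeded the untreated ones. The 18mo groups did not overlap at the Egln1 start region either, with 40.4 to 46.0 in IOP and 27.9 to 34.4 in contralateral libraries. The share of all shared regions with such a separation was not counted.

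The IOP difference at the Egln1 region 24.8 kb downstream was 25.3 percentile points over both ages (exact permutation test within age, two-sided, p = 0.01), 19.1 points at 3mo and 31.4 at 18mo. It did not pass the correction over 24751 regions (adjusted p = 0.468). The smallest p that the IOP tests can give is 0.005. Passing the correction therefore needs very many features near that p at once, and failing it does not show that a region was unchanged. Of the 15 constant regions it alone had an unadjusted p under 0.05 in this test, and 4.23% of all 24751 regions reached that level with a higher rank after IOP. The difference of the effect between ages was 12.3 points (exact permutation test, p = 0.575). Over 16 alternatives, which include leaving out each library, the exact p lay between 0.01 and 0.0313 and the difference between 21.2 and 28.1 points.

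Egln3 is a hydroxylase gene that HIF itself induces. Its intronic region 11.7 kb downstream was called in all 18 libraries at folds from 7.39 to 16.5, while the start region was called in 13. The start region was listed in 1 of 3 of the 3mo untreated, 2 of 3 of the 3mo contralateral and 3 of 3 of the 3mo IOP libraries. At 18mo it was listed in 3, 3 and 1 of 3 in the same order. All 6 controls of 18mo and 3 of 6 of 3mo thus called it (exact Fisher test, two-sided, p = 0.182, the smallest p these totals allow). With lists cut to equal numbers of peaks, or with a call only where a peak covered 50% of the region, the age difference in the share of libraries turned from 0.5 to -0.167 (exact p = 1.0 for each). The intronic region holds ACGTG on the opposite strand and the start region window holds none of the cores searched.

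The rank of the Egln3 intronic region moved in opposite directions after IOP at the 2 ages. It was 69.9, 92.0 and 60.4 in the 3mo contralateral and 93.3, 84.7 and 86.1 in the 3mo IOP libraries. At 18mo it was 85.1, 63.0 and 83.4 in contralateral and 67.2, 59.8 and 56.1 in IOP libraries. The groups overlapped at both ages. The effect was 30.1 points lower at 18mo than at 3mo, which is at and not under the threshold (exact permutation test of the difference, p = 0.05), and the mean effect over ages was -1.12 points (p = 0.865 by the same exact test).

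Among the targets, Vegfa had 2 constant regions, both over annotated start sites. The first, 57 bp before the gene's start, ranked 25.1, 19.7 and 17.7 in the 3mo untreated libraries and 22.9, 23.8 and 20.4 at 18mo. In the other 12 libraries it ranked between 3.46 and 16.6, so that every untreated library lay above every contralateral and IOP library. This comparison was chosen after the values were seen. Of the 15 constant regions this alone had all untreated libraries above the others, which held for 4.69% of all shared regions, and none of the 15 had all untreated libraries below, which held for 3.03%. Untreated libraries differ from the rest in treatment of the animal and in the shortest listed peak, and these cannot be told apart. The second start region, 1.69 kb downstream, ranked from 5.19 to 19.5, and its untreated and other libraries overlapped. Neither passed the test of age or of IOP (exact permutation tests, p from 0.11 to 0.745). The window held 5, 4 and 5 peaks in the 3mo untreated libraries and 2 to 5 in the others.

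Adm, which encodes the vasodilator peptide adrenomedullin, was the only member with a lower unadjusted p for age. Its window is the shortest, 12.2 kb, and held 3 consensus regions, none of them constant. It held 1, 0 and 1 peaks in the 3mo untreated and 0, 2 and 0 in the 3mo contralateral libraries, against 2, 1 and 2 in the 18mo untreated and 2, 2 and 2 in the 18mo contralateral libraries. The 18mo controls had 1.83 ± 0.408 and the 3mo controls 0.667 ± 0.816 peaks (SD, n = 6 each), a difference of 1.17 peaks (exact permutation test, two-sided, p = 0.0411, adjusted p = 1.0). The ranges overlapped, at 1 and 2 peaks. Within the untreated libraries the difference was 1.0 (exact p = 0.3) and within the contralateral libraries 1.33 (exact p = 0.4), where 3 against 3 cannot go below 0.1. Without 3mo untreated replicate 5, 3mo contralateral replicate 1 or 3mo contralateral replicate 3, each a library with no Adm peak, the difference was 1.03 peaks (exact p = 0.0541 for each). With lists cut to equal numbers of peaks it was 0.833 (exact p = 0.0671). The unadjusted p was under 0.05 in 10 of 17 alternatives.

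The start region of Adm, which holds GCGTG at 2 places on the opposite strand, was listed in 2, 1 and 1 of 3 of the 3mo untreated, contralateral and IOP libraries and in all 9 libraries of 18mo. Its peaks were weak, with folds from 2.46 to 7.46. The highest 3 were the 18mo untreated libraries at 7.29, 6.15 and 7.46. The comparison of the 12 controls gave 6 of 6 against 3 of 6 (exact Fisher test, p = 0.182, the smallest p these totals allow). A region 1.38 kb downstream in the coding exon was listed in 8 of the 12 contralateral and IOP libraries and in none of the 6 untreated ones, at folds from 2.48 to 3.31. After IOP the Adm count was 2, 1 and 0 at 3mo and 3, 1 and 2 at 18mo, a difference from contralateral of 0.167 peaks (exact permutation test, p = 1.0). The window also overlaps the transcript Gm28863.

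Slc2a1 encodes the glucose transporter GLUT1, through which glucose crosses the blood-retina barrier. It had 7 consensus regions, of which 3 were constant, at 0.433, 3.71 and 12.8 kb downstream. The first covers the start site and ranked from 11.7 to 38.1, and its window holds ACGTG once and GCGTG at 2 places. The window of the gene held 5, 5 and 5 peaks in the 3mo contralateral and 6, 5 and 6 in the 3mo IOP libraries. At 18mo it held 5, 5 and 6 in contralateral and 6, 7 and 6 in IOP libraries. The IOP difference was 0.833 peaks (exact permutation test, p = 0.06, adjusted p = 1.0). Without 3mo IOP replicate 2 or 18mo contralateral replicate 3 it was 1.0 peak (exact p = 0.015 and 0.02), as with lists cut to equal numbers of peaks (exact p = 0.045). In the other 13 of 16 alternatives p was not under 0.05, and it reached 0.38 in the wide window, where the difference was 0.5 peaks. The untreated libraries, with 6 to 7 peaks, were as high as the IOP libraries. A region 6.29 kb upstream, named after its calls were seen, was listed only in IOP libraries, 1 of 3 at 3mo and 2 of 3 at 18mo. The exact conditional test gave p = 0.2, the smallest p these totals allow.

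Kdr encodes the main signalling receptor of VEGF on endothelial cells. Its start region was called in all 18 libraries, and it holds GCGTG at 2 places. It ranked 0.729, 5.55 and 7.46 in the 3mo untreated libraries and 5.82, 12.5 and 3.56 at 18mo. In the contralateral libraries it ranked 23.6, 30.6 and 30.9 at 3mo and 22.3, 13.6 and 8.42 at 18mo, and in the IOP libraries 20.8, 15.1 and 38.4 at 3mo and 38.5, 20.2 and 48.2 at 18mo. The untreated values were at the low end and overlapped the 18mo contralateral ones. The IOP difference was 8.63 points (exact permutation test, p = 0.25) and that of age -5.43 points (exact permutation test, p = 0.394). The age difference was 2.72 points within the untreated libraries (exact p = 0.5) and -13.6 within the contralateral ones. The contralateral values of the 2 ages did not overlap (exact p = 0.1, the smallest that 3 against 3 allows). The share of all shared regions with such a separation was not counted. The intronic region 27.4 kb downstream was called in 1 of 6 untreated and 10 of 12 other libraries. The Kdr window held 1 to 5 peaks, and no group stood apart.

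Flt1 encodes a receptor that binds VEGF tightly and signals weakly. It was the longest of the 10 genes and had 10 consensus regions, none of them constant. The start region was listed in 2, 2 and 3 of 3 of the 3mo untreated, contralateral and IOP libraries and in 1, 3 and 2 of 3 at 18mo. The widest spread of peaks was in the 18mo untreated libraries, with 7, 1 and 2. The other groups held 4, 7 and 6 (3mo untreated), 4, 8 and 3 (3mo contralateral), 5, 4 and 5 (3mo IOP), 8, 5 and 7 (18mo contralateral) and 5, 8 and 3 (18mo IOP). No difference passed a test (exact permutation tests, p = 0.905 for age and 0.56 for IOP).

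The strongest Flt1 region, and the highest median fold of all 69 regions, lay 114.5 kb downstream in an intron. Its median fold was 16.4. It was listed in all 12 contralateral and IOP libraries, at folds from 14.8 to 20.6 and at percentiles from 93.9 to 99.8 of their own lists. In the 3mo untreated libraries it was not listed, and in the 18mo untreated libraries it had folds of 4.30 and 6.17 in replicates 4 and 6 and no peak in replicate 5. The untreated libraries thus did not overlap the others in either age. The untreated libraries are also those with the shortest listed peaks, and treatment of the animal and list cannot be told apart here. The age test of the region gave p = 0.545 and the IOP test p = 1.0 (exact tests). Neither test could go under 0.05 with these calls, and the smallest p allowed for age was 0.0606 (exact Fisher test).

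**Figure D3:**
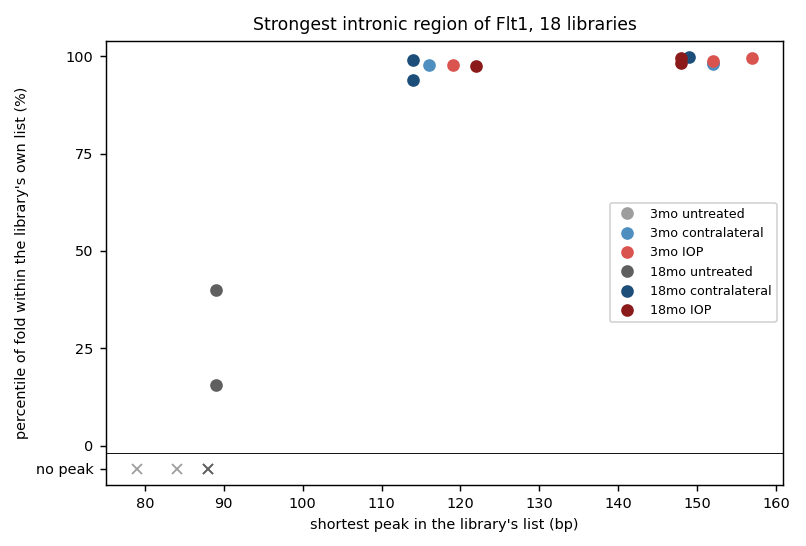
The strongest intronic region of Flt1: percentile of its fold within the library's own list (y axis, %, crosses mark libraries with no peak) against the shortest peak of that list in bp (x axis), 18 libraries coloured by group. All 12 contralateral and IOP libraries lie between 93.9 and 99.8, and the 6 untreated libraries, whose shortest peaks are 79 to 89 bp, lie at 40.1, at 15.5 or have no peak. The crosses of libraries with the same shortest peak coincide.

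The question of age was addressed with the 12 controls, 6 of each age, untreated and contralateral together. Across the genome, 3.19% of the 9868 consensus regions able to reach p under 0.05 did so with more calls at 18mo and 0.385% with more at 3mo (exact Fisher test per region), and none passed the correction (smallest adjusted p = 0.345). Of the members' regions, 7 were able to reach that level and none did in either direction. In peaks per gene, 1.58% of 16722 genes had an unadjusted p under 0.05 with more peaks at 18mo and 0.191% with fewer, by the exact permutation test, and again none passed the correction. The smallest p of the age tests is 0.002165, so here too the correction can be passed only if many features reach it together. Of the 10 genes, Adm alone was among the former and none among the latter. In the ranks of the 24751 shared regions, 3.71% were higher and 3.47% lower at 18mo at that level, and none of the 15 member regions was in either set. The median age difference over the 10 genes was 0.167 peaks, and over all 16722 genes 0.

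The question of pressure was addressed by IOP against contralateral retinas within each age. Regions with more calls after IOP at an unadjusted p under 0.05 made up 1.62% of the 5572 consensus regions able to reach it, and regions with fewer calls 3.43% (exact conditional test). Of the members' regions 3 were able to reach it, and none did. Regions called in all 3 libraries of a group and none of the other made up, at 3mo, 0.217% (gained after IOP) and 0.241% (lost) of consensus regions and, at 18mo, 0.239% and 2.23%. None of the 57 member regions was among them at either age. In peaks per gene 0.126% of genes had more and 1.06% fewer peaks after IOP at that level (exact permutation test), and none of the 10 did. In the ranks, 3.52% of shared regions were lower after IOP, with no member among them, and the Egln1 intronic region was the member among the higher ones. The median IOP difference over the 10 genes was 0 peaks, and over all genes -0.167.

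**Figure D4:**
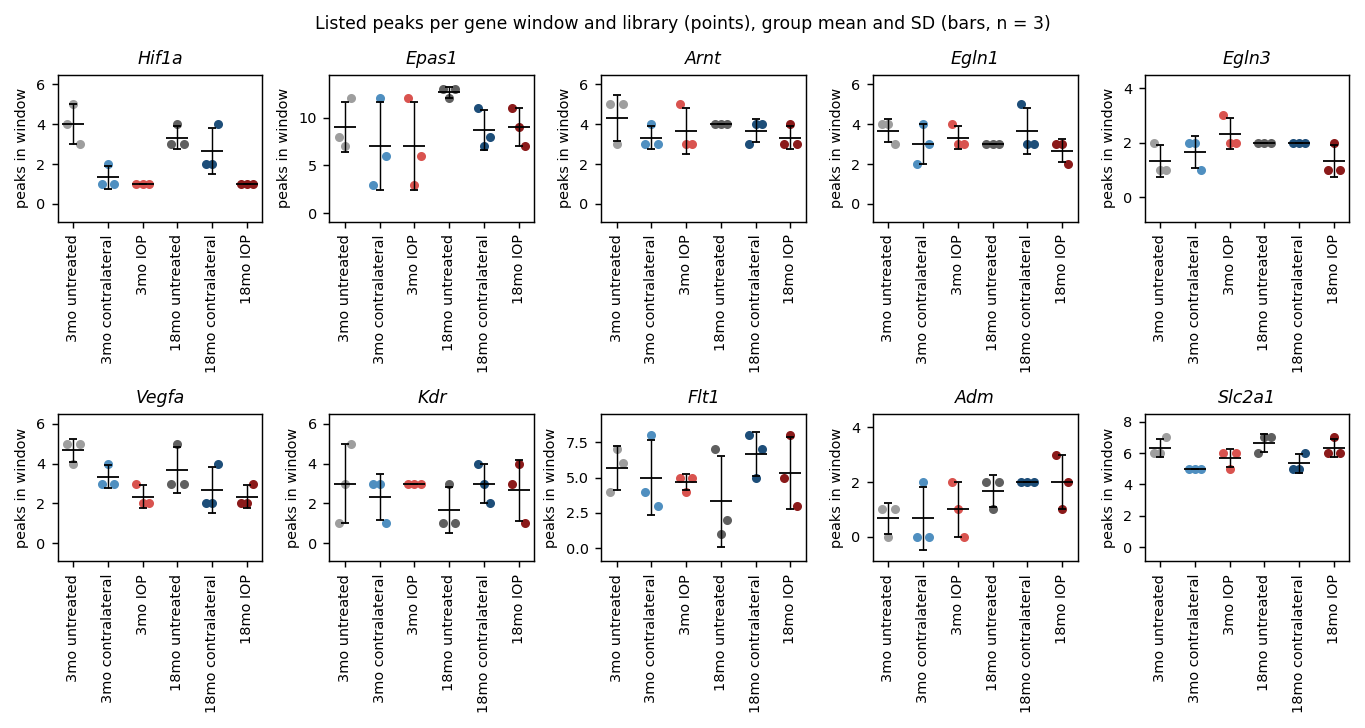
Peaks listed in the window of each gene (y axis) in the 6 groups (x axis): points are libraries, bars the group mean and SD (n = 3). The 18mo controls of Adm lie at 1 and 2 peaks and the 3mo controls at 0 to 2, and Hif1a lies at 1 peak in all 6 IOP libraries.

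**Figure D5:**
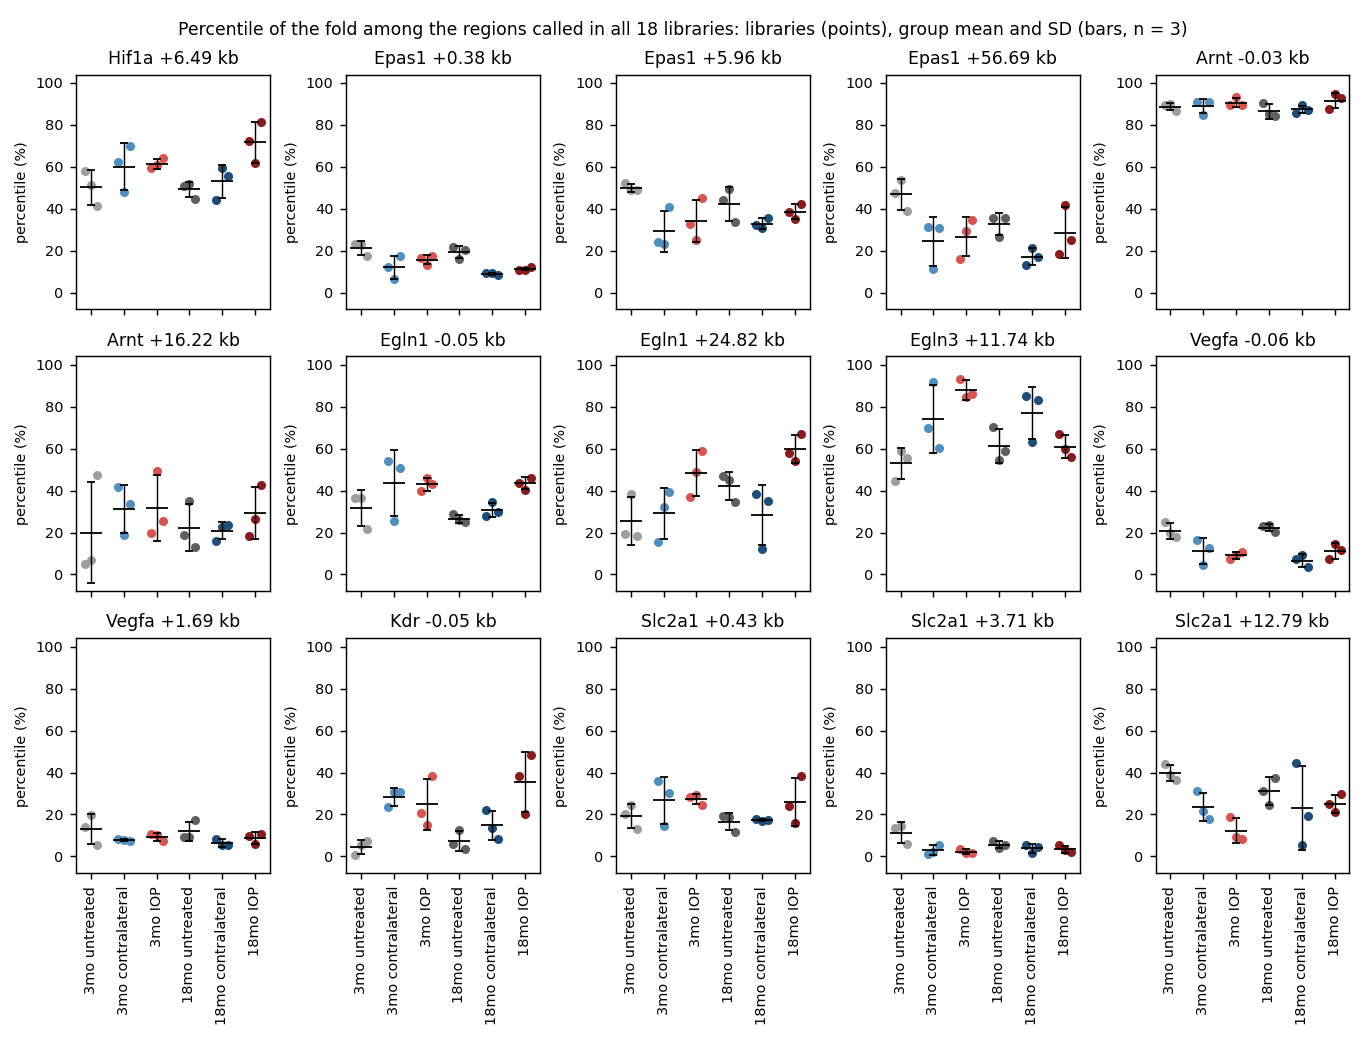
Percentile of the fold (y axis, %) of the 15 member regions called everywhere, among the 24751 regions called in all 18 libraries, in the 6 groups (x axis): points are libraries, bars the group mean and SD (n = 3). At the Egln1 region 24.8 kb downstream the 18mo IOP libraries, 54.2 to 67.2, lie above the 18mo contralateral ones, 11.98 to 38.3, and at the Vegfa start region the untreated libraries, 17.7 to 25.1, lie above all others. The 18mo IOP libraries also lie above the 18mo contralateral ones at the Hif1a, Epas1 and Egln1 start regions.

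A list of 40 further genes of the same pathways was counted in the same way. Here and for the cell types below, a start region means the stretch from 1 kb before to 100 bp after an annotated start. A peak was found in the windows of 37 of the 40 genes in at least 2 libraries. In 20 of the 40 the start region was called in all 18 libraries, against 51.7% of 21951 protein-coding genes. Among the 20, named as examples after their calls were seen, were Vhl, whose product directs the marked alpha subunits to degradation, and the glycolytic genes Ldha, Pgk1 and Hk2. In 7 the start region was called in none, among them Tek, Tie1 and Flt4, receptors of endothelial cells. By the same definition, the start region of the endothelial receptor gene Kdr was called in all 18 libraries and that of Flt1 in 12. The share of all protein-coding genes with no call was not counted. No gene of the list had an unadjusted p under 0.05 in either direction, for age or for IOP (exact permutation tests of peaks per gene). Its median difference was 0 peaks for age and -0.167 for IOP, the same as over all genes.

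Start regions of genes that define retinal cell types gave the setting for these values. Of 7 photoreceptor genes 6 were called in all 18 libraries, and of 5 genes of bipolar, amacrine and horizontal cells 1 was. Of 6 endothelial genes none was called in all libraries, and 0 to 2 were called in any given library. The start regions of Esam and Egfl7 were called in 14 of the 18 libraries each, and those of Pecam1, Cdh5, Cldn5 and Sox17 in none. Mural, microglial, pigment epithelium and lens genes reached at most 1 called start region in a library, with Cspg4, Rgs5, Cx3cr1, P2ry12, Aif1, Rpe65, Rdh5, Ttr and Cryaa at 0. Those of Pdgfrb, Tmem119 and Lim2 were called in 9, 2 and 1 of the 18 libraries. For ganglion cells and glia the counts were 2 to 3 of 4 and 1 to 3 of 4, with Sncg and Gfap at 0. Peak lists held 36011 to 66160 peaks, and between 24 and 41 of the 69 member regions were called in a library, from 0.0599% to 0.0783% of all regions that it called. The most member regions were called in 3mo untreated replicate 6 and 3mo contralateral replicate 2, the libraries with the longest lists, 66114 and 66160 peaks. The lists state no read depth, and a region that was not called may still have been open below the threshold.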

How the data were processed

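The authors aligned reads with STAR 2.7.8a to mm10 per the processing notes, and called peaks with MACS2 in each library separately, at a q-value of 0.05 by the study's text. The processing notes also list HOMER, edgeR and bedtools 2.29.2. Trimming, removal of duplicates and any shift for the transposase are not given in the sources used here. The label text describes crosslinking and the study's methods tagmentation of nuclei. Each deposited list gives the position and summit of every peak, with a score, which is 10 times the −log10 q-value. The deposited fold, a ratio, is that of the summit pileup to local background. The −log10 p-value and −log10 q-value were deposited beside it. None is a read count, so no count model was run, and precision rests on 3 libraries per group.

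Calls, peaks per gene and percentiles were computed with Python 3.11.15, NumPy 2.4.6, pandas 2.3.3 and SciPy 1.17.1. Regions called in at least 2 libraries were kept. Age was tested over 6 against 6 controls by Fisher's exact test (calls) or an exact permutation test (924 arrangements), and IOP by exact tests within age (400 arrangements), all two-sided, with Benjamini-Hochberg adjustment over all features tested. The scripts were tested on simulated data. Alternatives were a stricter q (−log10 q of at least 2), equal numbers of peaks, a coverage of 50%, regions of 1 library, a window of 50 kb upstream and 10 kb downstream, −log10 q as ranked value, age within kind of control, a replicate block, and leaving out each library.

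The members and lists were chosen with earlier results of these data known. Named were all 10 genes, regions over a start site, the strongest other region of each gene, and regions or pathway genes with an unadjusted p under 0.05. The comparison of untreated with all other libraries was added after the values were seen. A sequence of 1 region is not reported here. Any other region or gene named was chosen after its values were seen. The overlap of called regions between replicates of a group (Jaccard index) was 0.615 to 0.786.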

Additional observations from a re-analysis of the deposited data

Results flagged for a closer look

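In groups of 6 controls of an age, 50 sets of values were searched for a library far from the others, and 6 had such a library (gap over range above Dixon's 0.625). Chance gives about 5% for continuous values only. Peak counts hold ties, so 1 differing library gives a gap over range of 1.0, as in the Arnt, Egln1 and Adm counts below. The number found can therefore not be set against 5%. All 6 were 18mo controls. Contralateral replicate 1 held 3 Arnt peaks, where the other 5 libraries held 4, and 5 Egln1 peaks, where the others held 3. Untreated replicate 5 held 1 Adm peak, where the others held 2. The Egln1 region 24.8 kb downstream ranked at 11.98 in contralateral replicate 2 and at 34.5 to 47.0 in the others. In untreated replicate 6 the Vegfa region 1.69 kb downstream ranked at 17.3, against 5.19 to 9.45, and the Slc2a1 start region at 11.7, against 16.9 to 19.2. The IOP effect was compared between ages in 25 tests, and none had an unadjusted p under 0.05.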

How the results depend on the processing

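Counts of members are those with an unadjusted p under 0.05. No alternative gave a call past the correction, for members or other features. The replicate block, which pairs libraries by number, has a smallest p of 0.03125. It could pass the correction only if most features tested reached that p, and the other alternatives also need many features near their smallest p. For age, the 1 gene counted by peaks (Adm) became 0 with equal numbers of peaks, with the wide window and with age labels permuted within kind of control, and 0 to 1 when a library was left out. The 0 regions counted by rank became 1 with labels permuted within kind and 0 to 1 when a library was left out (1 without 3mo untreated replicate 6 or 3mo contralateral replicate 2, where the count over all regions rose from 1778 to 2567 and 2793). For IOP, the 0 genes became 1 with equal numbers of peaks and 0 to 1 when a library was left out. The 1 region by rank became 2 with −log10 q ranked and 1 to 4 when a library was left out, with 4 without 3mo contralateral replicate 3. Over all 24751 shared regions the count was 1918, then 2015 with −log10 q and 2211 without that library. The 0 exclusive regions at 18mo became 0 to 2, with 2 without 18mo IOP replicate 2 and 1 without 18mo IOP replicate 1 or contralateral replicate 2. Over all 73567 consensus regions that count rose from 1818 to 3732, 3348 and 4079 in the same order. The causes were not tested. Read depth, which limits what a list can hold, is not stated in the lists.

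Same-numbered libraries did not deviate together. For IOP with contralateral libraries of an age, which could share an animal, the correlations ran from -0.0898 to 0.0974. For 18mo with 3mo libraries of a kind of control, which cannot share an animal, they ran from -0.176 to 0.0216. The correlations do not exclude that some IOP and contralateral libraries came from the same animal, and the main tests did not use the numbers as pairs. The replicate block paired these same libraries, so for age it paired 18mo with 3mo mice by number only. With it, the age count by peaks was 0 and the IOP count by rank was 2, and the counts by region calls and of IOP by peaks were 0.

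Directions turned in the following, none past the threshold. With equal numbers of peaks the age difference was -0.167 in calls of the Egln3 start region (also with 50% of the region covered), -0.5 peaks for Hif1a and -0.167 for Egln3, and the IOP difference was 0.5 in calls of the Egln3 start region, 0.333 peaks for Egln1 and 0.167 for Flt1. With −log10 q ranked, the age difference was 0.19 points at the Epas1 start region, -0.85 at the Egln3 intronic region and 0.38 at the Vegfa start region, and the IOP difference was 1.13 at the Egln3 intronic region. In the wide window the IOP difference was -0.5 peaks for Epas1 and -0.667 for Adm. Leaving out a library gave IOP differences in peaks of -0.0833 to 0.5 (Adm), -1.08 to 1.42 (Epas1) and -0.167 to 0.583 (Kdr), and age differences of -0.933 to 0.467 (Flt1) and -0.667 to 0.133 (Kdr). In ranks, IOP differences ran from -0.143 to 7.27 (Arnt, 16.2 kb), -4.67 to 3.36 (Egln3, intronic), -9.02 to 0.768 (Slc2a1, 12.8 kb) and -0.549 to 2.51 (Vegfa start), and age differences from -8.19 to 0.323 (Arnt, 16.2 kb), -5.32 to 0.494 (Epas1, 5.96 kb), -2.81 to 0.633 (Vegfa, 1.69 kb) and -3.84 to 0.707 (Vegfa start).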
